A study of Rattus norvegicus with 6 samples.

Results

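Egr1, Egr2, Egr3 and Arc were measured in the healing achilles tendon of rats. They are 4 of the 22250 gene IDs in the deposited count table, and all 4 had counts in every library and were among the 15122 genes tested. The members were chosen by gene ID, as Egr1 (ENSRNOG00000019422), Egr2 (ENSRNOG00000000640), Egr3 (ENSRNOG00000017828) and Arc (ENSRNOG00000043465), with their counts in this comparison already known. Their differences between the groups are therefore given as a description with no test, and nothing is supported with them. The pairing of symbol and ID came with the choice of members, since the reference gene table held none of the IDs.

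Egr1, Egr2 and Egr3 are transcription factors that bind GC-rich DNA through zinc fingers. Their genes, like Arc, are immediate early genes: cells transcribe them soon after a growth factor, stretch or other stimulus, without first making new protein. MAP kinase signalling drives many of them through serum response factor, which binds the CArG box, and through factors of the CREB family, which bind the cAMP response element. In tendon, Egr1 is known as a mechanosensitive activator of collagen genes.

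The table held 3 Sprague-Dawley rats of the injury model group, labelled as not treated, and 3 of the celecoxib + lactoferrin treatment group, all from day 14 and all with the achilles tendon cut and sutured. Treated rats received celecoxib, a cyclooxygenase-2 inhibitor, together with lactoferrin, an iron-binding milk protein, by daily injection at the injury. The effects of the pair of agents, and of the injection itself, cannot be told apart here, because the methods describe no vehicle injection and neither celecoxib alone nor uninjured tendon was analysed here. The labels give 14 days as an age, whereas in the methods day 14 counts from surgery.

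Library totals lay between 34546567 and 47181784 counts. Over all genes tested, Pearson's r of the log2 levels, across genes rather than across independent samples, was between 0.938 and 0.949 within the injury model group, between 0.896 and 0.922 within the treated group and between 0.887 and 0.963 across the groups. Treated replicate 1 was least like the others (mean r 0.902), and treated replicate 3 was most like injury model replicate 2 (r 0.963). Values without treated replicate 1 and without treated replicate 3 are given with each gene, and those without injury model replicate 2 with the alternative settings. The markers of tendon and of other cell types were not analysed here, since no table paired the IDs with symbols.

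The promoters of Egr1 and Egr2 are shown because these were the members with an entry in the promoter table. No link between their letters and the levels was tested. The sequences are from RefSeq (build GRCr8, not the build the reads were aligned to), and 2 of the 4 members matched by symbol. Each window runs from 250 bases before the table's start of the gene to 50 bases after it. Capitals mark CArG boxes (CC, a run of A or T, then GG) and the cAMP response element half-site TGACG, read on both strands, so that CGTCA is the same site on the other strand.
Egr1, chr18:26736828-26737127, plus strand: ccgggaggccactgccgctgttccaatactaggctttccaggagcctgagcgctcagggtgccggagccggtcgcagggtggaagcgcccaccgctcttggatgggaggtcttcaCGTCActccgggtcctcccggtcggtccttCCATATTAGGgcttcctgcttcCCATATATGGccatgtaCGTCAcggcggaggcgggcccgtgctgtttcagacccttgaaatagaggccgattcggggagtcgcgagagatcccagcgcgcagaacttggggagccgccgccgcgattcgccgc
Egr2, chr20:21054392-21054691, minus strand: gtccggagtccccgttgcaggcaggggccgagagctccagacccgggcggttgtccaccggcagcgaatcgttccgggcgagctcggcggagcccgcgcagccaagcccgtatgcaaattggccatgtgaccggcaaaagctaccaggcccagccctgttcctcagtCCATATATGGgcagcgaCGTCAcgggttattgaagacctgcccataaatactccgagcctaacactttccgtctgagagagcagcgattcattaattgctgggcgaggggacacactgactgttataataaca

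Egr1 held 2 CArG boxes and Egr2 held 1. The box nearest the start was the same in both genes, CCATATATGG, and began 83 bases before the start in each. A CGTCA followed it after 7 bases, beginning 66 bases before the start in both promoters. Among the 33469 promoter windows of the same length, 1.64% held a CArG box, 0.0209% held 2 or more, 21.2% held TGACG on either strand and 0.272% held both kinds. A CArG box followed by CGTCA after 7 bases occurred in 3 windows, those of Egr1, Egr2 and Dusp5, the gene of a nuclear phosphatase of ERK. This spacing was looked for, and Dusp5 named, after the first 2 promoters had been seen. The GC box GGGCGG, held by 33.1% of windows, occurred 1 time in Egr2. The Egr site was searched as GCGTGGGCG (0.544% of windows) and as GCGGGGGCG (2.73%), and neither spelling was in these windows. A match is a description of the letters, not of a bound site.

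Egr1 was lower in every treated rat than in any injury model rat. Its counts were 8100, 3916 and 4184 in injury model replicates 1, 2 and 3, and 1139, 1417 and 1173 in treated replicates 1, 2 and 3. In CPM (counts per 1000000 counts of the library, after TMM normalization, which rescales the libraries to each other), the same libraries stood at 189.4, 81.5 and 124.0, against 33.3, 41.1 and 23.3. Injury model replicate 1 was highest, and the lowest injury model rat was still 1.99 times the highest treated rat. The group means were 132 ± 54.4 CPM (SD, n = 3) and 32.5 ± 8.92 CPM (SD, n = 3), a log2 fold change of -2.02 with a standard error of 0.346 in edgeR, or 4.05-fold lower. Without treated replicate 1 the log2 fold change was -2.04, and without treated replicate 3 it was -1.83. Without injury model replicate 1, the rat with the highest Egr1, it was -1.66. In whole tendon, fewer cells that transcribe a gene and less of its RNA per cell cannot be told apart.

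The place of Egr1 among all 22250 IDs, ordered by counts within a library, needs no scaling between libraries, although it depends on transcript length. Egr1 was at place 724, 1846 and 1097 in the injury model rats and at place 4540, 3868 and 5856 in the treated rats. The places, like the levels, did not overlap between the groups. They come from the same counts, known when Egr1 was chosen, and so only describe it. The share of all IDs without overlap in place was not counted.

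Egr2, also known as Krox20, directs myelination by Schwann cells and takes part in tendon development. It had 1407, 599 and 672 counts in injury model replicates 1, 2 and 3, and 289, 356 and 333 counts in treated replicates 1, 2 and 3. The levels were 32.9, 12.5 and 19.9 CPM against 8.44, 10.3 and 6.61 CPM. The groups did not overlap, but the gap was small: injury model replicate 2 was 1.21 times treated replicate 2. The means were 21.8 ± 10.3 CPM (SD, n = 3) and 8.45 ± 1.85 CPM (SD, n = 3), with a log2 fold change of -1.36 (standard error 0.360, edgeR). It was -1.37 without treated replicate 1, -1.22 without treated replicate 3 and -0.94 without injury model replicate 1, the rat with the highest Egr2.

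Egr3 is needed for muscle spindles and acts in T cells as a brake on activation. It had 434, 380 and 284 counts in injury model replicates 1, 2 and 3, or 10.2, 7.91 and 8.42 CPM. In treated replicates 1, 2 and 3 it had 179, 215 and 123 counts, or 5.23, 6.23 and 2.44 CPM. The injury model rats lay close together, with a coefficient of variation of 13.3%, and the treated rats were spread more widely, at 42.4%. The lowest injury model rat was 1.27 times the highest treated rat. The means were 8.82 ± 1.17 CPM (SD, n = 3) and 4.63 ± 1.96 CPM (SD, n = 3). The log2 fold change of Egr3 was -0.93 (standard error 0.358, edgeR), the smallest of the 4, and it was -1.03 without treated replicate 1 and -0.63 without treated replicate 3, the rat with the lowest Egr3.

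Arc encodes a cytoskeleton-associated protein best known from neurons, where it takes part in the removal of glutamate receptors from synapses. It had 388, 253 and 206 counts in injury model replicates 1, 2 and 3, and 38, 71 and 74 counts in treated replicates 1, 2 and 3. The levels were 9.07, 5.26 and 6.11 CPM against 1.11, 2.06 and 1.47 CPM. Arc had the widest gap of the 4 genes, with the lowest injury model rat at 2.56 times the highest treated rat. Its means were 6.81 ± 2.0 CPM (SD, n = 3) and 1.54 ± 0.478 CPM (SD, n = 3), a log2 fold change of -2.14 (standard error 0.361, edgeR). It was -1.95 without treated replicate 1, -2.1 without treated replicate 3 and -1.88 without injury model replicate 1, the rat with the highest Arc. The smallest value, 38 counts, had an exact 95% Poisson interval from 26.9 to 52.2 counts, which covers counting error only and lies below the lowest injury model value, 206 counts.

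**Figure D1:**
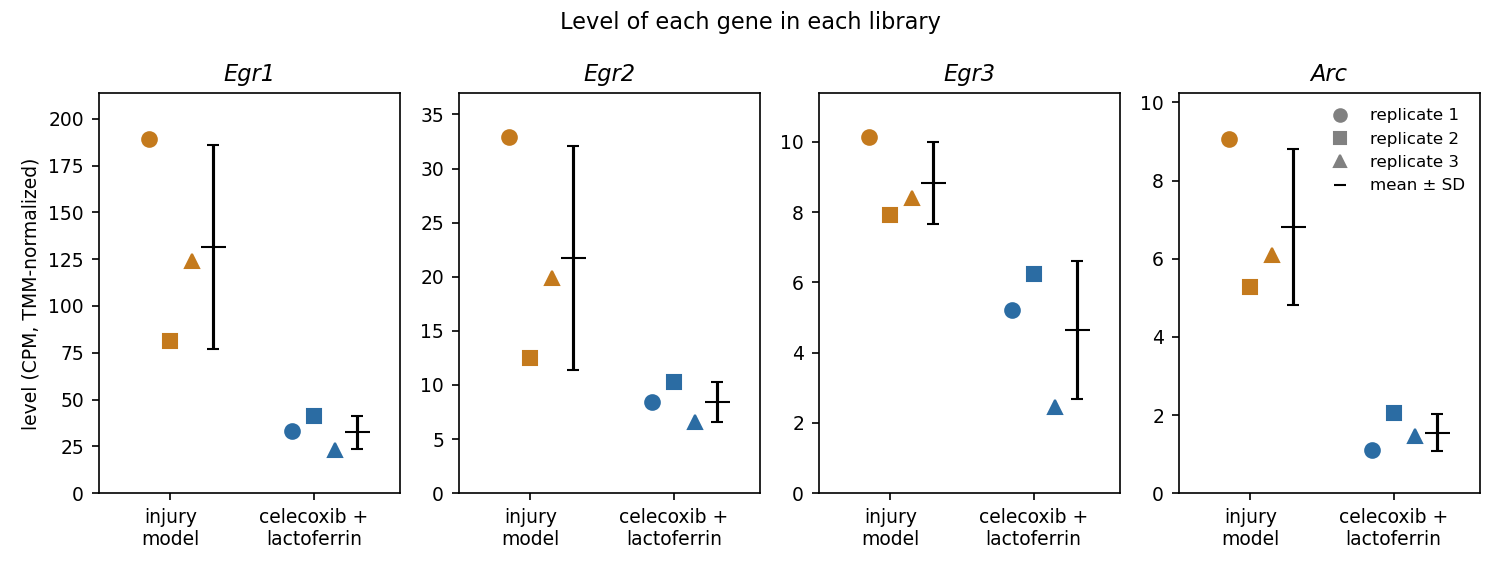
Level of Egr1, Egr2, Egr3 and Arc in each library, in CPM after TMM normalization, on a linear axis from 0 for each gene. Points are single libraries, with the marker shape giving the replicate number, and the bars give the mean ± SD of 3 libraries; in each panel the 3 treated libraries lie below the 3 injury model libraries.

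All 4 genes were lower in the treated group without overlap, whereas over all genes tested 3.69% did so in this direction. With an unadjusted p-value under 0.05, the threshold the study used, 4 of 4 were lower in edgeR, against 1.20% of all genes, and 4 of 4 in DESeq2, against 1.75%. After Benjamini-Hochberg adjustment, 0 of 4 were called lower by edgeR, against 0.00661% of all genes, and 2 of 4 by DESeq2 (Egr1 and Arc), against 0.145%. Since the members were chosen on this comparison, these counts describe them and carry no evidence of their own.

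The median log2 fold change of the 4 genes was -1.69, and that of all genes tested was 0.007. The 5th and 95th percentiles of all genes lay at -0.63 and 0.67. Counted from the lowest log2 fold change of the 15122 genes, Arc was at place 53, Egr1 at 64, Egr2 at 166 and Egr3 at 384. All 4 genes thus lay beyond the 5th percentile.

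**Figure D2:**
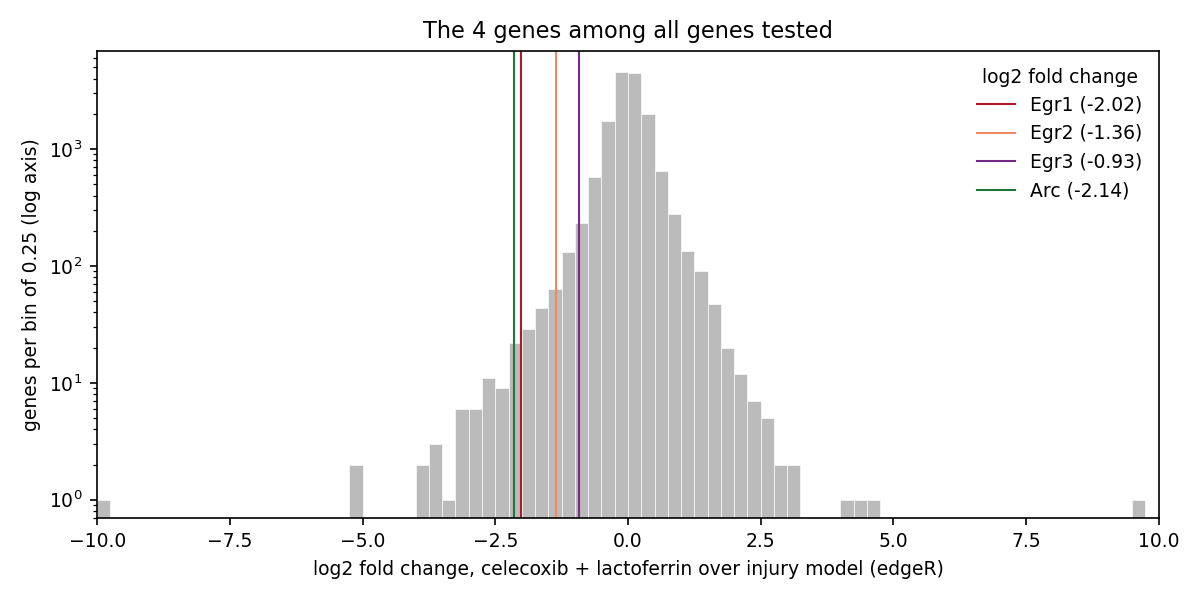
Histogram of the log2 fold change (celecoxib + lactoferrin over injury model, edgeR) of the 15122 genes tested, with the number of genes per bin on a log axis. Coloured lines mark Arc at -2.14, Egr1 at -2.02, Egr2 at -1.36 and Egr3 at -0.93, all left of the bulk of genes around 0.

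The 4 genes were not lower by equal amounts. Ratios of counts within a library show this without any scaling between libraries, and 6 pairs of members were compared, with no test. The ratios rest on the same group differences, which were known when the members were chosen. How many other gene pairs had ratios without overlap was not counted. Egr2 counts were 17.4%, 15.3% and 16.1% of Egr1 counts in injury model replicates 1, 2 and 3, and 25.4%, 25.1% and 28.4% in treated replicates 1, 2 and 3. The ratio was narrow within each group and did not overlap between them, with means of 16.2% ± 1.05 (SD, n = 3) and 26.3% ± 1.82 (SD, n = 3). Egr1 thus differed more between the groups than Egr2 did.

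Egr3 counts were 5.36%, 9.7% and 6.79% of Egr1 counts in the injury model rats and 15.7%, 15.2% and 10.5% in the treated rats. These values did not overlap either, and the mean ratio was 1.89 times as high in the treated group. Arc counts were 4.79%, 6.46% and 4.92% of Egr1 counts in the injury model rats and 3.34%, 5.01% and 6.31% in the treated rats. The ratio of Arc to Egr1 overlapped between the groups, with means of 5.39% ± 0.928 (SD, n = 3) and 4.88% ± 1.49 (SD, n = 3).

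The ratio of Egr3 to Egr2 also overlapped, at 45.5% ± 16.5 (SD, n = 3) for injury model rats and 53.1% ± 14.0 (SD, n = 3) for treated rats. Arc was lower relative to both: its mean ratio to Egr2 was 33.5% in injury model rats and 18.4% in treated rats, and its mean ratio to Egr3 was 76.2% and 38.1%, without overlap in either case. By these ratios, Arc and Egr1 formed the pair with the larger difference, and Egr2 and Egr3 the pair with the smaller one.

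**Figure D3:**
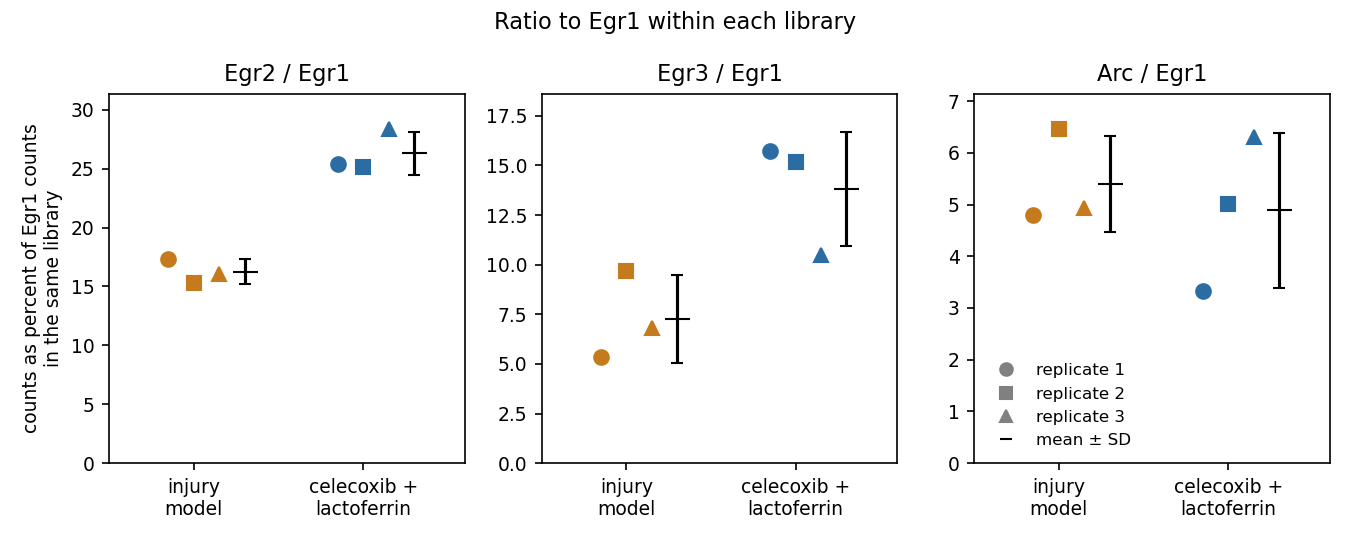
Counts of Egr2, Egr3 and Arc as a percent of Egr1 counts in the same library, on linear axes from 0, with single libraries as points and the mean ± SD of 3 libraries as bars. Egr2 / Egr1 lies between 15.3% and 17.4% in the injury model libraries and between 25.1% and 28.4% in the treated ones, while Arc / Egr1 overlaps.

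Differences between rats of 1 group are also given as a description, since the counts of the members were known when they were chosen. Within the injury model group, replicate 1 was highest and replicate 2 lowest in all 4 genes in CPM after TMM normalization. By library size alone, Egr3 was instead lowest in injury model replicate 3, at 8.22 CPM against 8.43 CPM in replicate 2. Within the treated group, replicate 2 was highest in all 4 genes, and replicate 3 was lowest in the 3 Egr genes, while Arc was lowest in replicate 1. After TMM normalization, Egr1, Egr2 and Egr3 placed the 6 libraries in the same order (Spearman's rho 1 for both Egr2 and Egr3 with Egr1). Each of Egr2 and Egr3 was tied at this rho with 10 other genes of 10899.

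Egr2 followed Egr1 most closely. The deviation of log2 CPM from the group mean was 0.61, -0.61 and 0.00 for Egr1 in injury model replicates 1, 2 and 3, and 0.71, -0.69 and -0.02 for Egr2. In treated replicates 1, 2 and 3 it was 0.07, 0.37 and -0.44 for Egr1 and 0.02, 0.31 and -0.33 for Egr2. Over the 6 libraries, which both genes share with their depth and scaling, Pearson's r of these deviations was 0.985. By this measure 27 other genes of 10899 with at least 5 CPM on average were more like Egr1 than Egr2 was.

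Egr3 and Arc followed Egr1 less closely, with r of 0.735 and 0.718 between deviations, and they followed each other least, with r of 0.337. Such values were common: 1493 of the 10899 genes were more like Egr1 than Egr3 was, and 1608 were more like Egr1 than Arc was. Egr3 and Arc parted in treated replicate 3, with deviations of -0.81 in Egr3 and -0.03 in Arc, and in treated replicate 1, with 0.28 in Egr3 and -0.42 in Arc.

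**Figure D4:**
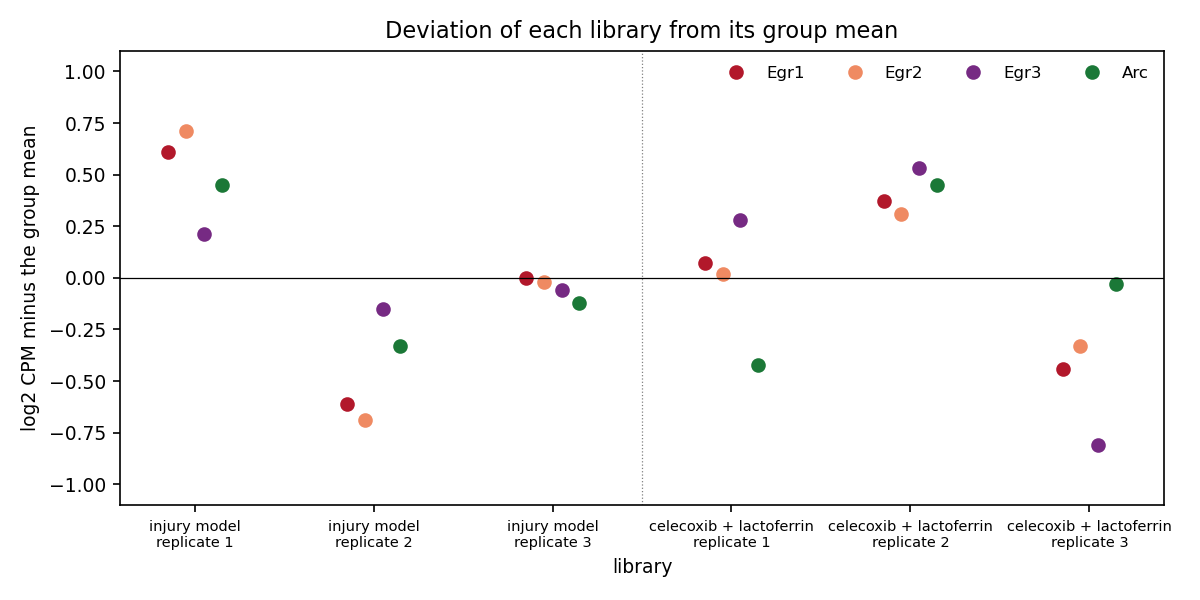
Deviation of log2 CPM from the mean of the library's group, for each gene and library, with the groups separated by a dotted line. Egr1 and Egr2 lie side by side in all 6 libraries, while Egr3 and Arc lie apart in treated replicate 1 (0.28 and -0.42) and treated replicate 3 (-0.81 and -0.03).

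The spread of the 4 genes within groups was wider than that of most genes. The SD of log2 CPM around the group means was 0.52 for Egr1, 0.54 for Egr2, 0.52 for Egr3 and 0.42 for Arc, and the median over all genes tested was 0.324. The members lay between the 64.4th and the 75.9th percentile of all genes. The log2 fold change was larger in size than this SD for all 4 genes, from -0.93 beside an SD of 0.52 in Egr3 to -2.14 beside an SD of 0.42 in Arc. Since the members were chosen on this comparison, this only describes them, and the share over all genes was not counted.

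Over all 6 libraries, with the difference between groups included, Egr2 was the fourth most like Egr1 among the 10899 genes (Pearson's r of log2 CPM 0.976), and Egr3 was at place 65 (r 0.892). Arc, whose mean lay under 5 CPM, had an r of 0.961, which 8 of these genes exceeded. The gene most like Egr1 was ENSRNOG00000020938 (r 0.983), with means of 57.9 ± 10.2 CPM (SD, n = 3) for the injury model rats and 39.5 ± 2.35 CPM (SD, n = 3) for the treated rats. ENSRNOG00000004659 came next (r 0.978), at 22.1 ± 1.23 CPM (SD, n = 3) and 16.1 ± 1.77 CPM (SD, n = 3). Their log2 fold changes were -0.55 and -0.46, and over the 5 genes most like Egr1, Egr2 included, they ran from -3.08 to -0.46. Neither ID could be paired with a symbol.

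The direction was the same in all 13 alternative settings for each of the 4 genes. As the members were chosen on this comparison and their groups did not overlap, leaving out 1 library could hardly have changed the direction. Leaving out 1 library at a time gave log2 fold changes from -2.27 to -1.66 for Egr1, from -1.65 to -0.94 for Egr2, from -1.21 to -0.63 for Egr3 and from -2.40 to -1.88 for Arc. Without injury model replicate 2 the values were -2.27 for Egr1, -1.65 for Egr2, -1.005 for Egr3 and -2.295 for Arc. Egr3 no longer had an unadjusted p-value under 0.05 when replicate 1 or 3 of the injury model or treated replicate 3 was left out, and the other 3 genes had one under all 13 alternatives. With a term that separates the 3 deeper from the 3 shallower libraries, a split that crosses the groups and was chosen on seeing the totals, the values were -2.14 for Egr1, -1.43 for Egr2, -1.22 for Egr3 and -2.11 for Arc.

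**Figure D5:**
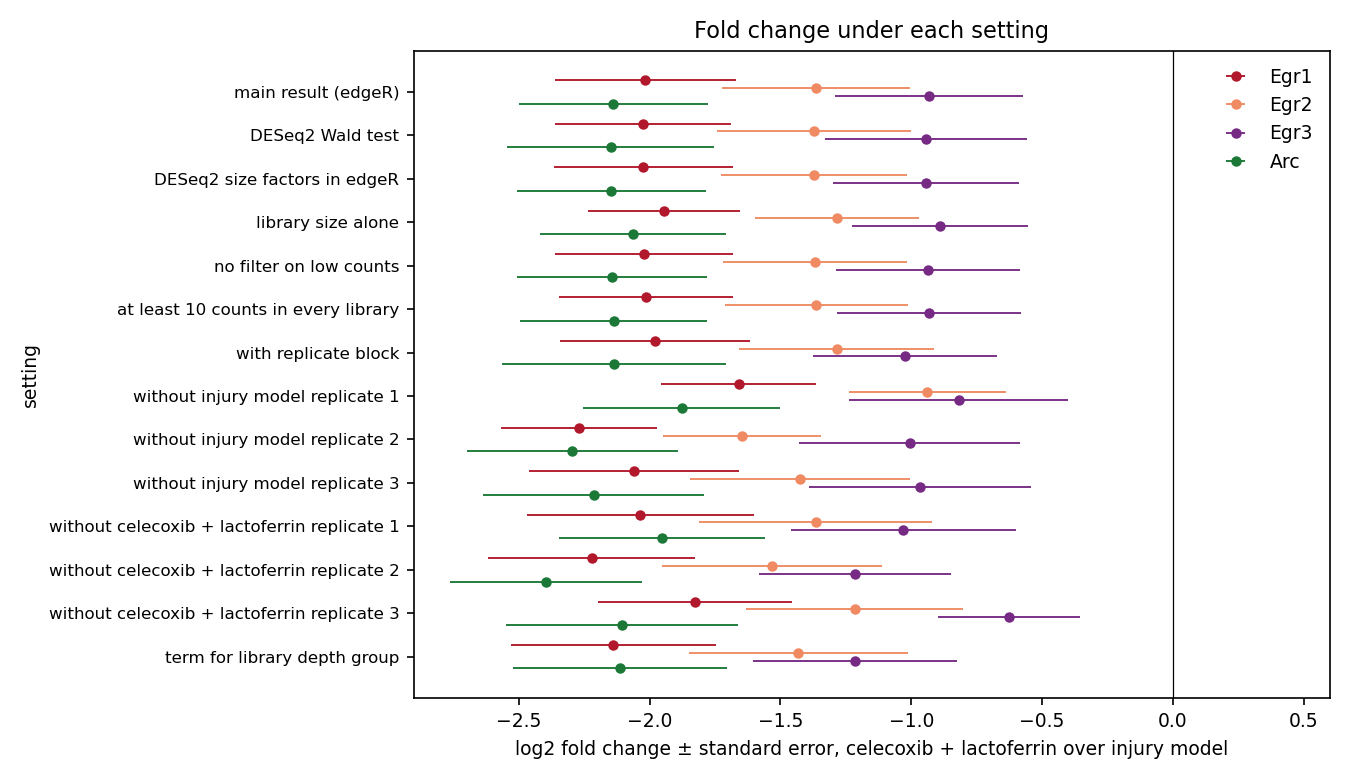
Log2 fold change (celecoxib + lactoferrin over injury model) with its standard error for each gene under the main result and 13 alternatives, 1 row per setting. All values lie left of 0, Arc and Egr1 between -2.40 and -1.66 and Egr2 and Egr3 between -1.65 and -0.63.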

How the data were processed

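Messenger RNA of tendon was measured in 3 injury model rats and 3 rats given celecoxib with lactoferrin. The authors filtered the reads by quality, aligned them with HISAT2 to Rnor_6.0 and deposited the raw, unnormalized counts of each Ensembl gene ID. The submitters' processing notes list GRCh38.p13, a human build, although the IDs are those of rat. The counting tool, its use of strand and how it assigned reads with several matches are not given in the sources used here.

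Columns were matched to the labels by replicate number, with M as the injury model and RS as the treated group. The sample titles contain neither M nor RS. M was read from a sample legend, and RS was taken as the other group of the series. The direction of every difference rests on this match. The main analysis used edgeR 4.0.16 in R 4.3.3 (TMM, filterByExpr, robust quasi-likelihood fit, Benjamini-Hochberg adjustment over 15122 genes). DESeq2 1.42.0 was an alternative; its adjusted p-value was empty for 2102 genes, which stayed empty. The standard error is the size of the log2 fold change divided by the square root of the F statistic. Log2 CPM used a prior count of 2. No pair of libraries was a duplicate (chi-square per degree of freedom of at least 90.6). The labels number the replicates without naming animals, so p-values measure the spread between these samples. The code was tested on simulated data.

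Members, gene lists and named genes were chosen with earlier results of these data known. Named genes are the 4 members and, by ID, the 2 most like Egr1. Dusp5 was named in addition, after its promoter had been seen. The 111 genes of the fixed lists and marker lists were not analysed here, because 0 of 22250 IDs were in the reference table.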

Additional observations from a re-analysis of the deposited data

How the results depend on the processing

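The log2 fold changes of Egr1, Egr2, Egr3 and Arc moved by less than the spread between replicates under all 13 alternatives. The SD of each gene within groups likewise moved by less than 1.5 times with library size alone. Over all genes, 182 were lower and 213 higher in edgeR with an unadjusted p-value under 0.05, and 1 lower and 0 higher with an adjusted one. DESeq2 gave 314 lower genes, and 23 lower and 3 higher after adjustment. Library size alone gave 116 lower genes. After adjustment, no filter on low counts gave 3 lower genes and a filter of at least 10 counts in every library 0. The term for library depth, chosen after seeing the data, gave 85 higher genes. Leaving out 1 library at a time gave 94 (without injury model replicate 1) to 417 (without treated replicate 3) lower genes and 132 to 473 higher ones, the lowest and the highest without the same libraries. After adjustment it gave 0 to 6 lower and 0 to 3 higher genes. The cause of these moves was not tested.

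With the replicate block, the log2 fold changes were -1.98 for Egr1, -1.28 for Egr2, -1.02 for Egr3 and -2.14 for Arc, and 0 genes were lower after adjustment. The deviations of same-numbered libraries from their group means had r between -0.27 and 0.057 across genes. For libraries with other numbers r was between -0.305 and 0.301. With 3 libraries per group, these values cannot show whether the numbers pair the rats. Of the 5 genes most like Egr1, 0 were among the first 5 by deviations from the group means and 2 by Spearman's rho, where ties are common. The gene lists were not run. Depth limits Arc most, with 38 to 74 counts in the treated libraries.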
